A study of Mus musculus with 11 samples.

Results

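Interferon-stimulated genes are switched on when an interferon binds its receptor: receptor-bound JAK kinases activate a transcription factor complex that holds STAT2 and IRF9 and binds interferon-stimulated response elements in the promoters of these genes. Their products restrict viruses by binding foreign RNA, tagging proteins, making antiviral nucleotides or adjusting the signal itself. In adipose tissue such genes can be expressed by adipocytes as well as by macrophages and other immune cells. The 9 genes described here are Irf7, Isg15, Usp18, Ifit1, Ifit2, Ifit3, Rsad2, Oasl2 and Ifi44. They were taken by name from a given list, and the reads of all their annotated transcripts were summed. All 9 were found among the 52282 genes of the tables and all 9 passed the filter on low counts, which kept 26960 genes.

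The data are bulk RNA sequencing of the inguinal white fat pad, which lies under the skin of the groin, from C57BL6/J mice 16 weeks old, all with floxed Raptor alleles. Raptor is the subunit that defines the growth kinase complex mTORC1, and the study asked how mTORC1 and the nuclear receptor PPARγ interact in this tissue. WT mice are Raptor floxed. KO mice are Raptor floxed and adiponectin Cre positive, so that the deletion is driven in adipocytes only, while the libraries hold RNA of every cell in the tissue. From 8 weeks of age all mice ate a high-fat diet for 8 weeks, without (diet) or with rosiglitazone, which activates PPARγ, dosed at 30 mg/kg/day. There are 11 libraries in 4 groups: 3 WT diet, 3 WT rosiglitazone, 2 KO diet and 3 KO rosiglitazone. In the 6 WT libraries the title and the treatment characteristic contradict each other, each naming the other treatment. The names of the deposited tables side with the characteristic, which was followed. Every comparison below that uses a WT group depends on that choice, apart from KO against WT over both treatments, which did not change. Separate animals are not stated for the libraries of a group, and the spread behind each p-value may therefore be technical.

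Depth was 13035346 to 40925952 estimated reads per library, and a member had between 47 and 1599 reads in a library. Levels are given in CPM, a gene's share of the reads in a library on a common scale, after trimmed-mean (TMM) scaling. Rptor, the gene of Raptor, measured 56.5 to 91.7 CPM in the 5 KO libraries and 73.9 to 126 CPM in the 6 WT libraries, over the whole gene and all cells. The genotypes overlapped across treatments, and within each treatment every KO library was below every WT library. Summed adipocyte markers (14 genes) were at 2746 to 7342 CPM in KO and 13380 to 40080 CPM in WT, and summed macrophage markers (16 genes) at 1459 to 4070 CPM in KO and 814 to 1512 CPM in WT. In whole tissue, fewer cells of a type and less RNA per cell cannot be told apart. One library stood apart for the 9 genes: KO diet replicate 1 was the highest of the 11 libraries for all 9, whereas it was the highest for 10.4% of all tested genes. The edgeR differences of the 9 genes in the comparisons that use it are therefore given with and without it.

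The promoters show what some of the 9 genes share in sequence. RefSeq windows (GRCm38.p6) that run from 250 bases before to 50 bases after a gene's start were present for 8 of the 9, with 2 windows for Ifit2; Usp18 was not matched. They were searched on both strands for GAAANNGAA, the core letters of the interferon-stimulated response element, and for TTCNNNGAA, the letters of the gamma-activated site. Copies of a motif were allowed to overlap, and no window of the 9 genes held both motifs. GAAANNGAA occurred in the windows of 5 genes (Isg15, Ifit1, Ifit3, Rsad2 and Ifi44) and in 8.56% of all 32851 windows. TTCNNNGAA occurred in 1 window, of Ifit2, and in 8.30% of all windows. The stretches around the matches upstream of the start are printed in the direction of the gene, with the matches in capitals; a match on the other strand reads TTCNNTTTC.
Isg15 (chr4:156200852-156200920, minus strand): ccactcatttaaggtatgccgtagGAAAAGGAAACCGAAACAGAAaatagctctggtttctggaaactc
Ifit1 (chr19:34640756-34640837, plus strand): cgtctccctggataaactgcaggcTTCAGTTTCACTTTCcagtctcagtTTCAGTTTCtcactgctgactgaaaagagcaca
Ifit3 (chr19:34583350-34583459, plus strand): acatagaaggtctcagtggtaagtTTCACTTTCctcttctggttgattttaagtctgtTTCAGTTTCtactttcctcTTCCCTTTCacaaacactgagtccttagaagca
Rsad2 (chr12:26456539-26456595, minus strand): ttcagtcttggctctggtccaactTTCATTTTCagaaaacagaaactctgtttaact
Isg15, Ifit1 and Ifit3 hold 3 matches each, a number reached by 21 of the 32851 windows (0.0639%). In Isg15 the 3 matches overlap in 1 run that starts 78 bases before the gene's start, in Ifit1 the first starts 109 bases and in Ifit3 155 bases before it. A match describes letters in a window and not a bound site, and its absence from the windows of Irf7, Ifit2 and Oasl2 says only that these letters are not there.

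Irf7 encodes the transcription factor that amplifies the type I interferon response (ENSMUSG00000025498.15, GRCm38 chromosome 7, 141262706 to 141266481, minus strand). Its level was 24.8, 24.8 and 38.0 CPM in WT diet replicates 1, 2 and 3, and 30.5, 25.5 and 24.4 CPM in WT rosiglitazone. It was 63.8 and 24.2 CPM in KO diet replicates 1 and 2, and 25.1, 28.3 and 45.6 CPM in KO rosiglitazone. KO diet replicate 1 and KO rosiglitazone replicate 3 were high, KO diet replicate 2 was the lowest of all, and every pair of groups overlapped. Of the reads given to Irf7, between 47.7% and 67.1% in a library went to protein-coding transcripts and the rest to other transcript types. Its end overlaps Phrf1 on the opposite strand by 45 bases, which unstranded reads cannot assign.

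Isg15 encodes a ubiquitin-like protein that is attached to other proteins during an interferon response (ENSMUSG00000035692.6, chromosome 4, 156199424 to 156200818, minus strand). It measured 3.51, 4.08 and 4.07 CPM in WT diet and 2.91, 2.86 and 2.98 CPM in WT rosiglitazone. The KO libraries gave 16.0 and 4.63 CPM on diet and 6.67, 4.14 and 6.72 CPM with rosiglitazone. All 5 KO libraries lay above all 6 WT libraries, and the WT rosiglitazone libraries were the lowest and closest together. The margin between genotypes was narrow, 4.14 CPM (55 reads) in KO rosiglitazone replicate 2 against 4.08 CPM (83 reads) in WT diet replicate 2. With rosiglitazone alone, 23.5% of all genes had every KO library above every WT library. The share over all 11 libraries was not counted. These levels rest on 47 to 325 reads per library.

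Usp18 encodes the protease that removes ISG15 from proteins and restrains the type I interferon receptor (ENSMUSG00000030107.10, chromosome 6, 121245906 to 121270917, plus strand). Usp18 stood at 13.2, 19.5 and 28.6 CPM in WT diet and at 12.9, 8.46 and 11 CPM in WT rosiglitazone. In KO it stood at 41.4 and 24.2 CPM on diet and at 23.2, 15.4 and 33.7 CPM with rosiglitazone. It is the member in which KO diet replicate 1 stood out least, at 1.23 times the next library. The 3 WT rosiglitazone libraries were the lowest of all, at up to 12.9 CPM against 13.2 CPM in WT diet replicate 1. The share of all genes with that order was not counted. The gene overlaps the non-coding gene Gm44148 on the opposite strand along 15715 bases.

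**Figure D1:**
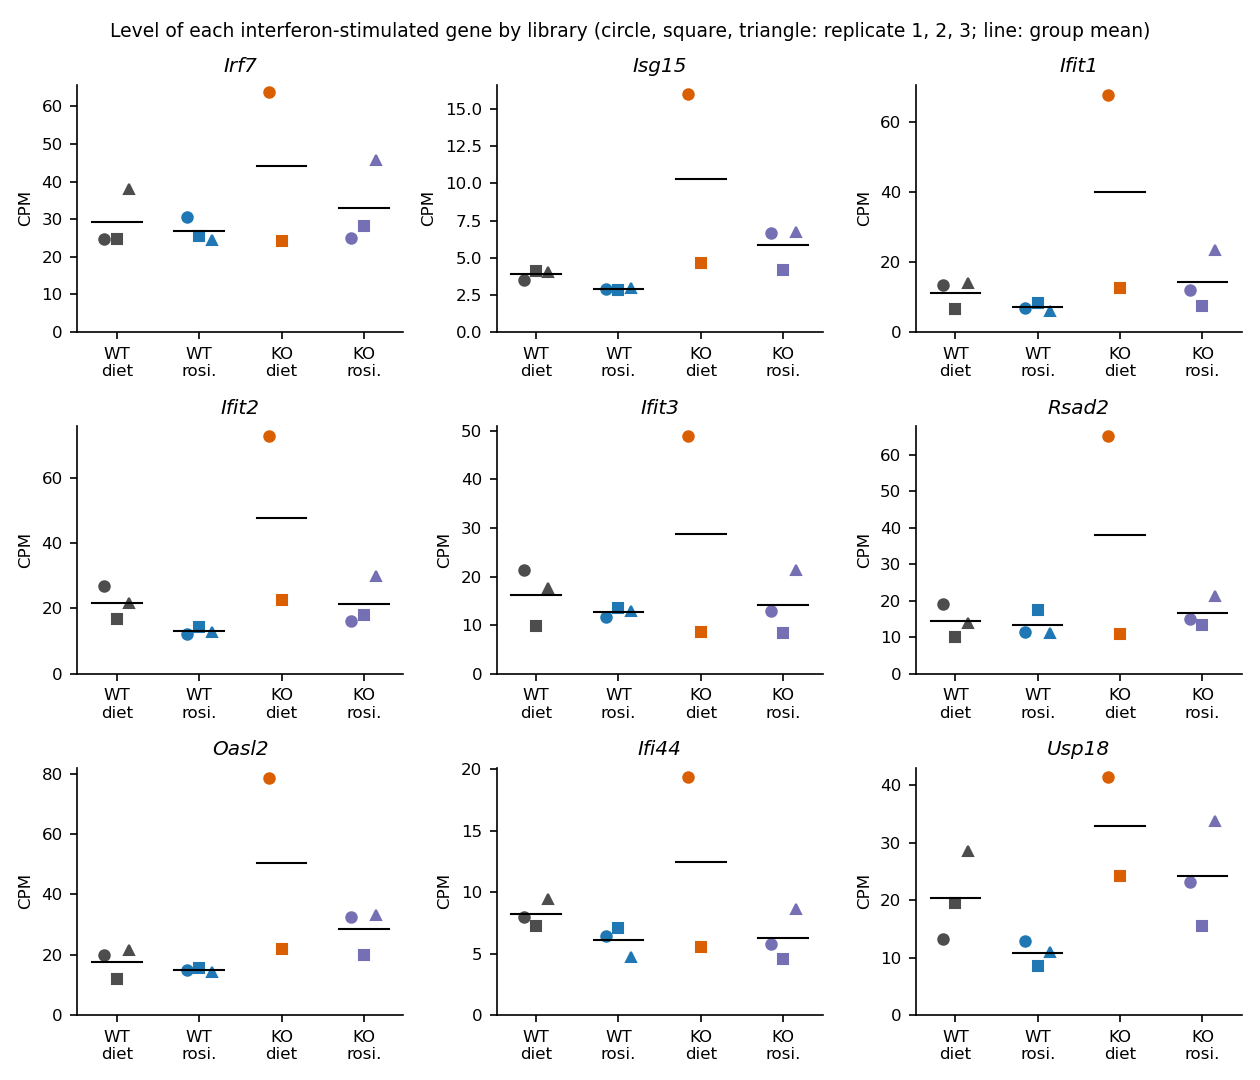
Level of each of the 9 genes in CPM (vertical axes, from 0) in the 11 libraries by group, with circles, squares and triangles for replicates 1, 2 and 3 and a line at the group mean. KO diet replicate 1, the orange circle, is the highest point in every panel, and the other KO diet library, the orange square, is at most 24.2 CPM in any panel.

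The IFIT genes encode antiviral proteins, of which IFIT1 binds viral RNA lacking host cap modifications and blocks its translation. Ifit1, Ifit2 and Ifit3 lie in 1 cluster on chromosome 19, at 34640871 to 34650009 (ENSMUSG00000034459.8), 34550694 to 34576419 (ENSMUSG00000045932.12) and 34583531 to 34588731 (ENSMUSG00000074896.3), all on the plus strand. Because the cluster holds close copies such as Ifit1bl1 and Ifit3b, the division of reads among its genes is uncertain.

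Ifit1 measured 13.4, 6.58 and 13.9 CPM in WT diet, 6.79, 8.27 and 6.15 CPM in WT rosiglitazone, 67.7 and 12.6 CPM in KO diet, and 12, 7.30 and 23.5 CPM in KO rosiglitazone. It had the widest range of the 9 genes, with KO diet replicate 1 at 11 times the lowest library and 5.38 times its replicate. Ifit2 measured 26.7, 16.8 and 21.5 CPM in WT diet, 12, 14.2 and 12.7 CPM in WT rosiglitazone, 72.8 and 22.4 CPM in KO diet, and 16.0, 18.0 and 30.0 CPM in KO rosiglitazone. The 3 WT rosiglitazone libraries were below all 8 others for Ifit2, at up to 14.2 CPM against 16.0 CPM in KO rosiglitazone replicate 1. How many of all genes show that order was not counted. Ifit3 measured 21.3, 9.82 and 17.7 CPM in WT diet, 11.7, 13.6 and 12.9 CPM in WT rosiglitazone, 49.0 and 8.51 CPM in KO diet, and 12.9, 8.43 and 21.3 CPM in KO rosiglitazone. For Ifit3 the 2 KO diet libraries differed 5.77-fold, and the lowest 2 of the 11 libraries were both KO, so that no pair of groups separated.

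Rsad2 encodes viperin, a radical SAM enzyme that makes a chain-terminating ribonucleotide (ENSMUSG00000020641.16, chromosome 12, 26442746 to 26456452, minus strand). Its level was 19.1, 10.1 and 13.8 CPM in WT diet, 11.3, 17.4 and 11.2 CPM in WT rosiglitazone, 65.2 and 10.9 CPM in KO diet, and 15.1, 13.3 and 21.3 CPM in KO rosiglitazone. KO diet replicate 1 was 3.06 times the next library and 5.98 times its replicate, both the widest such gaps among the 9 genes, and the other 10 libraries overlapped across groups.

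Oasl2 encodes a 2'-5'-oligoadenylate synthetase-like protein (ENSMUSG00000029561.17, chromosome 5, 114896936 to 114912234, plus strand). Oasl2 gave 19.8, 11.9 and 21.4 CPM in WT diet, 14.8, 15.7 and 14.3 CPM in WT rosiglitazone, 78.7 and 22.0 CPM in KO diet, and 32.4, 20 and 33.2 CPM in KO rosiglitazone. KO lay above WT within each treatment, with KO rosiglitazone replicate 2 below 1 WT diet library. Of all genes, 10.5% had that separation on diet and 23.5% with rosiglitazone. On diet the margin was narrow, 22.0 CPM in KO against 21.4 CPM in WT. Its leading transcript, with 33.7% of the gene's reads, is annotated as a target of nonsense-mediated decay, and protein-coding transcripts held 16.8% to 35.0% of the reads in a library.

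Ifi44 encodes an interferon-induced cytoplasmic protein (ENSMUSG00000028037.13, chromosome 3, 151730922 to 151749960, minus strand). It measured 7.98, 7.27 and 9.44 CPM in WT diet, 6.4, 7.12 and 4.69 CPM in WT rosiglitazone, 19.4 and 5.51 CPM in KO diet, and 5.80, 4.52 and 8.59 CPM in KO rosiglitazone. Apart from KO diet replicate 1, the KO libraries lay within or just below the WT range.

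Set against transcript length, as CPM per kilobase of effective length, the mean over the 11 libraries was highest for Irf7 (21.6 ± 8.75, SD, n = 11), Usp18 (19.8 ± 8.80) and Oasl2 (17.7 ± 12.6). Ifit3 (10.6 ± 7.21), Isg15 (8.56 ± 6.16), Ifit2 (6.68 ± 4.76), Ifit1 (6.42 ± 7.08) and Rsad2 (5.90 ± 4.68) followed, and Ifi44 was lowest (2.73 ± 1.44). Each neighbouring pair in that order differed by less than the larger of their SDs over libraries. When each gene was divided by its own median over the 11 libraries, the median of the 9 relative levels was 3.92 in KO diet replicate 1 and 1.66 in KO rosiglitazone replicate 3. It was 0.715 to 0.789 in WT rosiglitazone, 0.933 to 1.19 in WT diet, and 0.964 to 1.05 in the other KO libraries. All 9 genes were above their own median in those 2 KO libraries only, while 0, 1 and 2 were above it in the WT rosiglitazone libraries.

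KO tissue carried more RNA of Isg15, Oasl2 and Usp18 than WT tissue when the genotypes were compared over both treatments. In edgeR's quasi-likelihood test with p-values adjusted over all genes, these 3 of the 9 rose and 0 fell, where 12.8% of all tested genes were called. On the log2 scale, with its SE, the difference was 1.20 ± 0.29 for Isg15 (2.30-fold, adjusted p = 0.0234), 1.22 ± 0.31 for Oasl2 (2.33-fold, 0.0293) and 0.92 ± 0.27 for Usp18 (1.89-fold, 0.0483). The other 6 did not pass, at 1.42 ± 0.44 for Ifit1, 0.93 ± 0.29 for Ifit2, 0.86 ± 0.39 for Rsad2, 0.49 ± 0.42 for Ifit3, 0.45 ± 0.26 for Irf7 and 0.32 ± 0.31 for Ifi44, with adjusted p from 0.0633 to 0.503. The median of the 9 was 0.92, against 0.05 for all genes. DESeq2 called 5 of the 9 (Isg15, Ifit1, Ifit2, Oasl2 and Usp18) and 19.2% of all genes, and limma-voom called 3 (Isg15, Ifit2 and Oasl2) and 9.68%.

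Isg15 alone of the 9 passed without KO diet replicate 1, at 0.62 ± 0.19 (adjusted p = 0.0457), in a fit that called 17.8% of all genes. Oasl2 was then at 0.62 ± 0.21 and Usp18 at 0.70 ± 0.28, the median of the 9 was 0.38, and Ifit3, Rsad2 and Ifi44 were below 0. With each of the 11 libraries left out in turn, Isg15 passed in 6 fits (adjusted p from 0.00121 to 0.0604), Oasl2 in 4 (0.00264 to 0.0706) and Usp18 in 3 (0.0270 to 0.117). All 3 genes were above 0 in each of these fits. None of the 3 passed without WT rosiglitazone replicate 1, 2 or 3 or KO rosiglitazone replicate 1 or 3, nor in a fit without KO rosiglitazone replicate 2 and WT diet replicate 2 together, the libraries with over 0.5% of reads in skeletal muscle markers.

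With rosiglitazone, where KO and WT each had 3 libraries, all 9 differences were above 0 and edgeR called 0 of the 9, while it called 15.0% of all genes. At an unadjusted p under 0.05 there were 3 of the 9 (31.3% of all genes), DESeq2 called 1, Usp18 (22.1%), and limma-voom 4, namely Isg15, Ifit2, Oasl2 and Usp18 (34.1%). Those 4 genes had all KO rosiglitazone libraries above all WT rosiglitazone libraries, a separation in that direction found for 23.5% of all genes. Usp18 stood at 1.16 ± 0.36 (adjusted p = 0.0567), Isg15 at 1.00 ± 0.39 (0.108), Oasl2 at 0.93 ± 0.41 (0.154) and Ifit2 at 0.72 ± 0.40 (0.241) by edgeR. The fit shares 1 estimate of spread over all libraries: without KO diet replicate 1, which is in neither group, the 4 log2 fold changes moved by less than 0.01 and Isg15, Oasl2 and Usp18 passed, as did 18.7% of all genes. With WT treatments taken from the titles, 6 of the 9 were above 0 and Ifit2 was at -0.02.

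On the diet alone, edgeR called 0 of the 9 genes between KO and WT and 0.137% of all genes, although all 9 differences were above 0, with a median of 1.13 against 0.02 for all genes. At an unadjusted p under 0.05 there were 5 of the 9 (10.5% of all genes), DESeq2 called 0 (2.73%) and limma-voom 0 (0.0223%). Ifit1 stood at 1.83 ± 0.65 (adjusted p = 0.345), Oasl2 at 1.51 ± 0.45 (0.257) and Isg15 at 1.41 ± 0.42 (0.254). Both KO diet libraries were above the 3 WT diet libraries for Isg15 and Oasl2, as for 10.5% of all genes. The same 3 values without KO diet replicate 1 were 0.15 ± 0.58, 0.31 ± 0.35 and 0.25 ± 0.30, the median was 0.04 and 4 of the 9 were below 0. That fit leaves 1 KO diet library, which is assumed to vary like the other groups. With WT treatments taken from the titles, 5 of the 9 passed, and 10.7% of all genes.

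**Figure D2:**
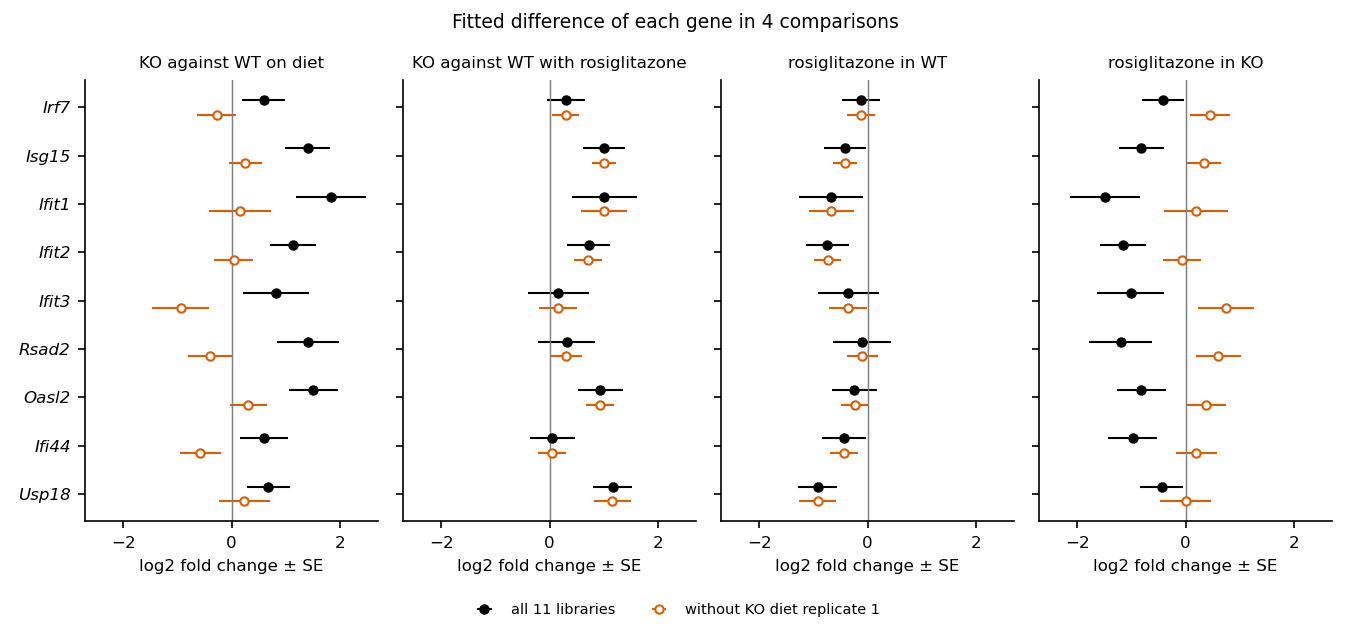
Log2 fold change with its standard error (horizontal axes) of each of the 9 genes in 4 comparisons, fitted on all 11 libraries (filled points) and without KO diet replicate 1 (open points). The filled and open points differ in the 2 comparisons that use the KO diet group and coincide in the 2 that do not, where the open points have the shorter bars.

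Rosiglitazone in WT tissue gave 9 differences below 0, of which edgeR called 0, while 2.14% of all genes were called. Usp18 was at -0.92 ± 0.36 (adjusted p = 0.221) and Ifit2 at -0.74 ± 0.39 (0.371), and the median of the 9 was -0.41 against -0.05 for all genes. Usp18 was the 1 gene at an unadjusted p under 0.05 (17.4% of all genes) and the 1 gene limma-voom called (27.2%), and DESeq2 called 0 (7.35%). All WT rosiglitazone libraries were below all WT diet libraries for Isg15, Ifit2, Ifi44 and Usp18, a separation in that direction found for 10.4% of all genes. With WT treatments taken from the titles these groups exchange names and every one of the 9 differences changes sign.

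Rosiglitazone in KO tissue gave 9 differences below 0, with a median of -0.98 against -0.01 for all genes, and edgeR called 0 of the 9 and 0.0148% of all genes. The largest were Ifit1 at -1.49 ± 0.65 (adjusted p = 0.578), Rsad2 at -1.20 ± 0.58 (0.642) and Ifit2 at -1.16 ± 0.43 (0.499). Ifit1 and Ifit2 had an unadjusted p under 0.05 (8.36% of all genes), and DESeq2 (1.35%) and limma-voom (0.00%) called 0 of the 9. All 9 genes overlapped between the KO groups. Without KO diet replicate 1 the median was 0.34, with 7 genes above 0 and Usp18 rounding to 0. Ifit1, Rsad2 and Ifit2 were then at 0.19, 0.61 and -0.07.

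The rosiglitazone difference in KO minus that in WT, the interaction, was called for 0 of the 9 genes by edgeR (0.104% of all genes), for 0 at an unadjusted p under 0.05 (10.5%), and for 0 by DESeq2 (1.97%) and limma-voom (0.226%). It was below 0 for 8 of the 9 with all libraries and above 0 for all 9 without KO diet replicate 1 (median 0.71) or with lymphocyte markers as a covariate on all 11 libraries (median 0.30). Averaged over genotypes, the rosiglitazone difference was below 0 for all 9 (median -0.68), with 0 called by edgeR (0.571%), 4 at an unadjusted p under 0.05 (14.6%), and 0 by DESeq2 (4.99%) and limma-voom (1.83%). Ifit2 came nearest, at -0.95 ± 0.29 (adjusted p = 0.175). Without KO diet replicate 1 that median was -0.04. With WT treatments taken from the titles, the interaction was below 0 for all 9 (median -1.36). The rosiglitazone difference averaged over genotypes was then below 0 for 8 of the 9 (median -0.27). The comparisons share libraries with each other, so they are not independent views of the same genes.

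Other genes induced by type I interferon were taken from a list of 40, of which 39 were tested. Over both treatments 13 of the 39 rose in KO and 3 fell, against 4.57% of all genes higher and 8.20% lower, with a list median of 0.54. Those that rose were Mx1, Oas1a, Oas1g, Oas2, Oas3, Oasl1, Ifit1bl1, Zbp1, Trim25, Trim30a, Adar, Rtp4 and Ifi204. They include oligoadenylate synthetases, which make the messenger that activates RNase L, and sensors of nucleic acids such as Zbp1 and Ifi204. On the log2 scale Oasl1, the relative of Oasl2, was up by 1.91 ± 0.35 (adjusted p = 0.00872), Ifi204 by 1.46 ± 0.29 (0.0124) and Oas1a by 1.40 ± 0.29 (0.0136). Ifi27l2a (-2.79 ± 0.33, adjusted p = 0.00145), Parp9 and Dtx3l fell, and the last pair encode partners in 1 ubiquitin ligase complex. Oas1a and Oas1g are close copies, so the reads of each are uncertain. Without KO diet replicate 1, 8 rose (Oas1a, Oas1b, Oasl1, Ifit1bl1, Trim30a, Sp100, Adar and Ifi204) and 4 fell, with 6.19% and 11.6% of all genes.

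**Figure D3:**
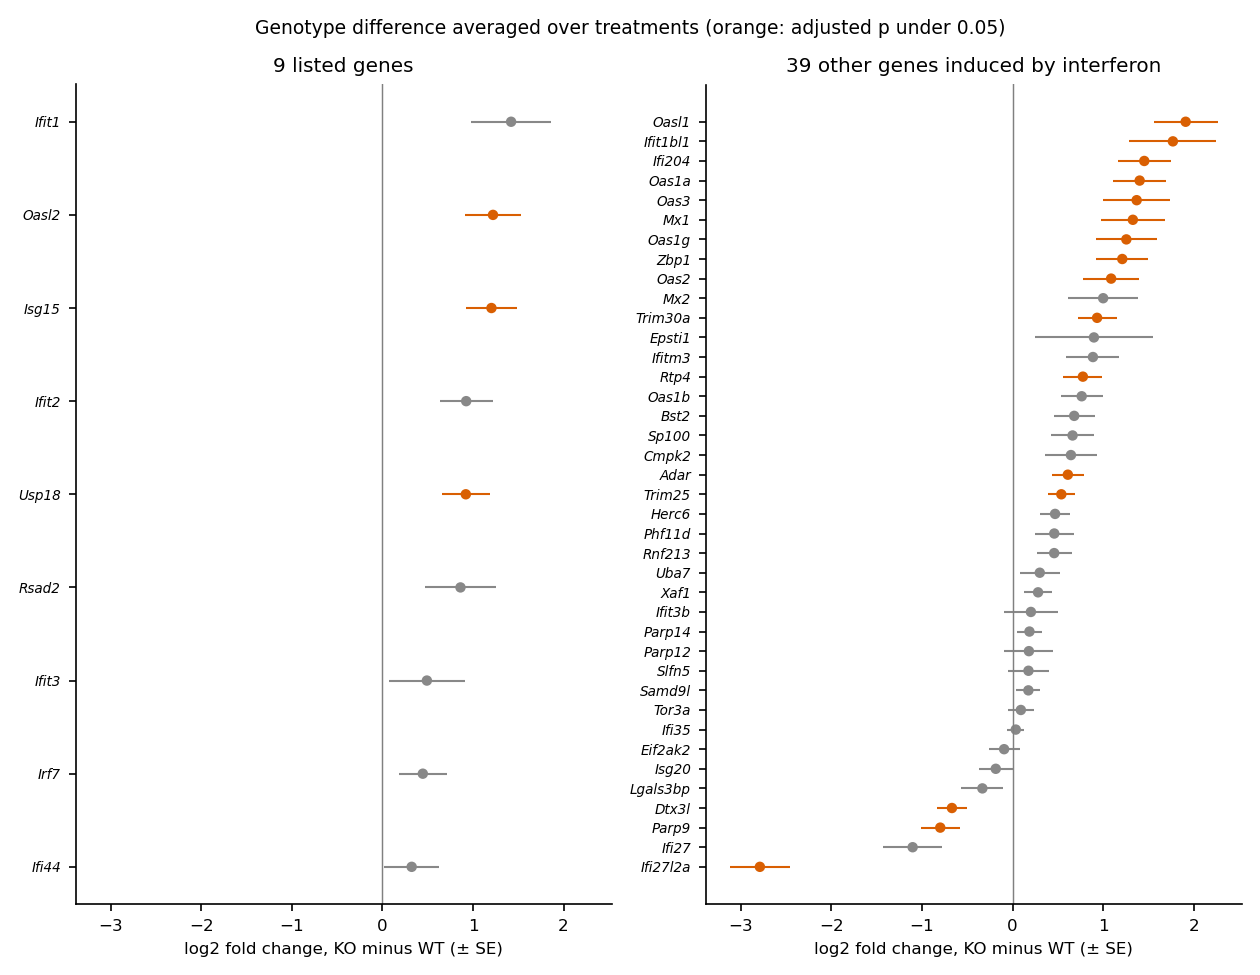
Log2 fold change of KO minus WT averaged over treatments, with its standard error, for the 9 listed genes (left) and the 39 other interferon-induced genes tested (right), with genes at an adjusted p under 0.05 in orange. Points right of 0 are higher in KO: all 9 on the left, 3 of them orange, and 32 of 39 on the right, with Ifi27l2a far to the left.

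With rosiglitazone, 10 of those 39 genes were higher in KO than in WT and 4 were lower, against 5.47% and 9.50% of all genes. Oas1a (1.69 ± 0.40, adjusted p = 0.021), Oasl1 (2.05 ± 0.49, 0.0218) and Adar (0.99 ± 0.24, 0.0222), the enzyme that edits adenosine in double-stranded RNA, rose together with Mx1, Oas1b, Ifit1bl1, Zbp1, Trim25, Trim30a and Sp100. Ifi27l2a (-2.89 ± 0.43, adjusted p = 0.00322), Ifi27, Parp9 and Dtx3l fell. These 14 genes also passed in the same directions without KO diet replicate 1. On the diet alone edgeR called 0 of the 39 (0.137% of all genes). At an unadjusted p under 0.05 there were 9 higher and 1 lower, against 10.5% of all genes in either direction. DESeq2 called 2 higher and 1 lower (0.852% and 1.99% of all genes) and limma-voom 0 (0.0223%). For rosiglitazone in WT edgeR called 0 (2.14%). At an unadjusted p under 0.05 there were 1 higher and 8 lower, against 17.4% of all genes in either direction. DESeq2 called 1 higher and 5 lower (4.99% and 3.02% of all genes) and limma-voom 5 and 10 (16.9% and 10.3%). For rosiglitazone in KO the calls were 0 by all 3 tools. At an unadjusted p under 0.05 there were 0 higher and 2 lower, against 8.36% of all genes in either direction.

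Over both treatments edgeR called 4.57% of all genes higher in KO and 8.20% lower. Among 12 genes of the receptor and its signal, 3 rose and 0 fell. Stat2 rose by 0.50 ± 0.12 (adjusted p = 0.0277), Socs3, a feedback inhibitor of JAK kinases, rose by 1.19 ± 0.30 (0.0301), and Irf9 also rose. These 3 did not pass without KO diet replicate 1, where Stat2 was at 0.374, Socs3 was at 0.935 and Ptpn11 was below 0. Among 17 sensors and adaptors that lead to interferon production, 6 rose and 0 fell, against the same 4.57% and 8.20% of all genes. Irf5, a transcription factor of myeloid cells (1.33 ± 0.17, adjusted p = 0.00184), Unc93b1, which carries nucleic acid-sensing Toll-like receptors to endosomes (0.94 ± 0.14, 0.00362), the kinase Ikbke (1.32 ± 0.28, 0.015) and the RNA sensor Tlr7 (1.12 ± 0.27, 0.0273) were called beside Dhx58 and Cgas. With KO diet replicate 1 left out, Tlr7 (0.794), Dhx58 and Cgas did not pass. Ikbke was then at 1.525, and Mavs and Tlr3 were below 0. Of 22 genes typical of the interferon gamma response, Ifi47 rose in KO over both treatments (0.86 ± 0.21, adjusted p = 0.0293) and the chemokine Cxcl9 fell (-1.68 ± 0.29, 0.00637). Without KO diet replicate 1, Ifi47 did not pass and Cxcl9 was at -1.879. With all libraries that is 1 higher and 1 lower of the 22, against 4.57% and 8.20% of all genes. Neither count exceeds the share of all genes. In WT tissue with rosiglitazone the GTPase genes Gbp5 (-0.85 ± 0.15, adjusted p = 0.0265) and Tgtp2 (-1.27 ± 0.27, 0.047) of that list fell, where 0.593% of all genes did. By the titles both would have risen. Neither passed without WT diet replicate 2 or 3 or WT rosiglitazone replicate 1, 2 or 3, nor without the muscle-rich libraries or on log2(TPM + 1), and only Gbp5 passed without KO rosiglitazone replicate 1 or 2.

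Reads of the interferons themselves were scarce. Of 21 interferon genes 12 had 0 reads in all 11 libraries, among them Ifnb1, and 0 reads allow up to 0.0733 to 0.23 CPM in a library at a limit of 3 counts. Ifng had at most 4 reads in a library. Ifnk and Ifnz passed the filter, with 316 and 83 reads over the 11 libraries. Neither was called by edgeR in the 7 comparisons, although Ifnk had an unadjusted p under 0.05 in KO against WT on diet (0.0324) and Ifnz in KO against WT with rosiglitazone (0.0252) and over both treatments (0.0268). The interferon alpha genes are close copies of each other, so their reads are uncertain.

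Markers of other cell types also differed among the libraries. All 16 macrophage markers were detected in every library, their sum was the highest of all in KO diet replicate 1 (4070 CPM, against 1459 CPM in its replicate) and second highest in KO rosiglitazone replicate 3 (3725 CPM), and 14 of 16 rose in KO over both treatments. KO rosiglitazone replicates 1 and 2 had macrophage sums of 3464 and 2997 CPM and relative levels of the 9 genes of 1.00 and 0.964. Of the 14 adipocyte markers 13 fell. In the same comparison 4.57% of all genes rose in KO and 8.20% fell. Lymphocyte markers went the other way within KO diet. Summed over 16 genes, T and NK cell markers were at 26.25 CPM in the first library against 594.5 CPM in the second, and the 12 B cell markers to 228 CPM against 1498 CPM. WT diet replicate 1 and WT rosiglitazone replicate 2 were also low in T and NK cell markers (26.98 and 18.42 CPM) and had relative levels of 1.12 and 0.789. Neutrophil markers (8 genes, up to 4 of them at 0 reads in a library) summed to 49.83 CPM in KO diet replicate 1 and 10.55 to 21.02 CPM elsewhere. Markers of plasmacytoid dendritic cells, a main source of type I interferon, were 11 genes, at most 2 of them at 0 reads in a library. They summed to 298.6 CPM in KO diet replicate 1, within the 254.5 to 336.1 CPM of all libraries. Siglech of that list was at 3.74 CPM there and 21.1 CPM in its replicate. It was at 14.9 to 18.0 CPM in KO rosiglitazone and 2.21 to 16.9 CPM in WT. Between KO and WT on diet 7 of the 11 were above 0 and 4 below, so the sum does not describe each marker. With the lymphocyte markers as a covariate, 5 of the 9 genes passed over both treatments (Isg15, Ifit1, Ifit2, Rsad2 and Oasl2) and Usp18 did not, where 20.2% of all genes were called. Adipocyte progenitor markers (10 genes) summed to 8903 CPM in KO diet replicate 1 and 3087 CPM in its replicate. Their sum was highest in KO rosiglitazone replicate 1, at 9375 CPM. Over both treatments 4 of the 10 rose in KO, against 4.57% of all genes. The part of macrophages, lymphocytes, neutrophils, plasmacytoid dendritic cells, adipocytes and progenitors in the levels of the 9 genes was not tested.

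**Figure D4:**
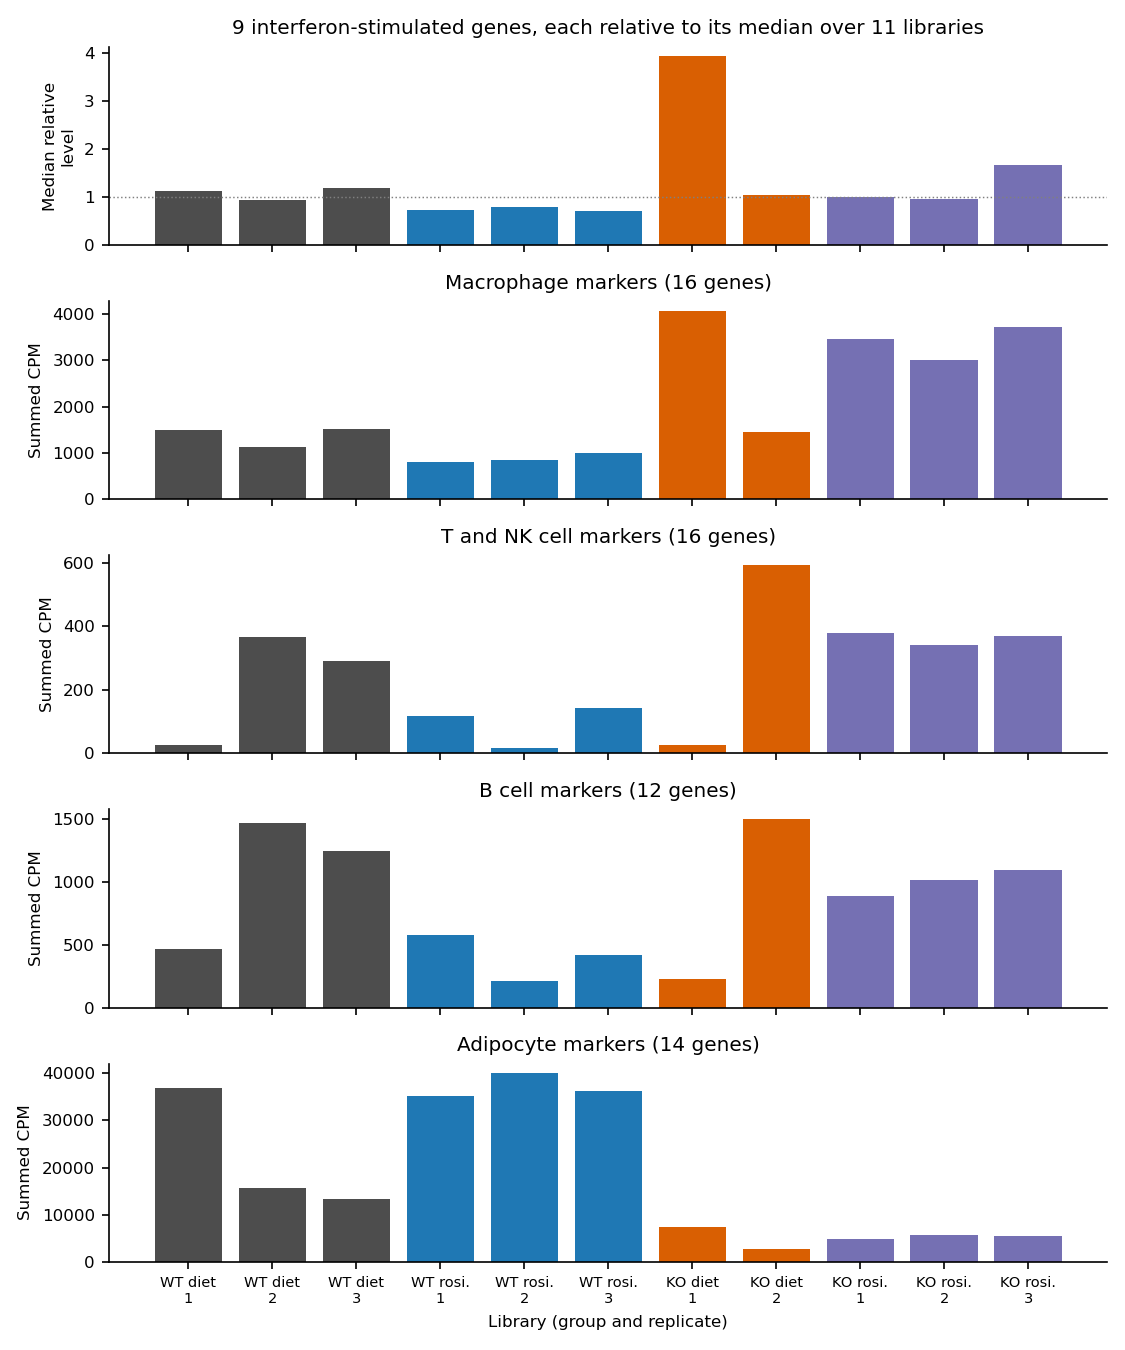
Median relative level of the 9 genes (top, each gene divided by its median over 11 libraries) and summed CPM of macrophage, T and NK cell, B cell and adipocyte markers (lower panels) in each library, coloured by group. KO diet replicate 1 is highest in the top panel (3.92) and in macrophage markers and low in both lymphocyte panels.

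The genes whose levels ran most like the 9 were ranked by Pearson's r over the 11 libraries with the mean scaled log2 CPM of the 9, leaving out predicted genes and those averaging under 1 in log2 CPM, as a description. Of the first 10, 9 are given: Cmpk2 (r = 0.96), Fndc3a (0.955), Phf11d (0.941), Ankfy1 (0.93), Clec4a1 (0.924), Tgfbi (0.914), Etv1 (0.912), Srgap2 (0.912) and Ccdc170 (0.911). Cmpk2 was at 39.6 CPM in KO diet replicate 1 and 10 to 21.6 CPM in the others, and Clec4a1 at 37 CPM and 5.70 to 15.3 CPM. Without that library r was 0.883 for Cmpk2, 0.878 for Ccdc170, 0.864 for Ankfy1 and 0.844 for Phf11d, which stayed among the first 10, and 0.639 to 0.809 for the other 5 given. Among the 9 genes, r with the mean of the other 8 was highest for Ifit1 (0.981, and 0.952 without KO diet replicate 1) and lowest for Usp18 (0.735), or for Ifi44 (0.573) without that library. The points share libraries, depth and scaling, and 1 library lies far from the rest.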

How the data were processed

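Trizol was used for RNA and Nextera XT for the libraries, per the labels' protocols. Salmon, edgeR and the builds mm10 and GRCm38 are named, without versions, per the submitters' processing notes. Each deposited table covers 1 library and gives for every transcript, per the file headers, its TPM and its estimated count. Of 132288 transcripts 131892 matched GENCODE M21 (GRCm38), and the rest held at most 0.1435% of reads. Counts were summed per gene and rounded. Tests were edgeR 4.0.16 quasi-likelihood fits of 4 group means on the 11 libraries, after TMM scaling and filtering by group, with 7 comparisons and Benjamini-Hochberg adjustment at 0.05. DESeq2 1.42.0, limma 3.58.1 (voom, and log2(TPM + 1)), other scalings and filters and left-out libraries were alternatives. Deposited TPM was used only there, since 1 transcript takes 15.3% to 47.0% of it. The fit was tested on simulated data. No libraries of a group were identical (chi-square per degree of freedom 28.2 to 148). The members and lists were chosen with earlier results of these data known. All 9 members were to be named, and of other lists up to 4 genes with the smallest p in a comparison and those called. One gene of the ranking by likeness is not reported here.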

Additional observations from a re-analysis of the deposited data

How the results depend on the processing

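For KO against WT over both treatments the count of the 9 genes called was 3 (12.8% of all genes). It was 2 with RLE scaling, where Usp18 did not pass, and 4 with upper-quartile scaling (12.4% and 13.8%). It was 5 by DESeq2 (19.2%), with protein-coding genes only (21.2%) and with the lymphocyte covariate (20.2%). It was 0 on log2(TPM + 1) (7.42%) and without the libraries over 0.5% muscle reads (7.15%). It was 1 without WT diet replicate 2 (11%), and 0 without WT rosiglitazone replicate 1, 2 or 3 (7.91%, 6.9% and 8.67%). The count fell without KO diet replicate 1 and rose without KO diet replicate 2, fits that leave 1 library in that group. On log2(TPM + 1) Ifi44 was at -0.046 and the median of all genes was -0.088 against 0.049 in the chosen fit. On that scale it was -0.301 against 0.053 for KO against WT with rosiglitazone, with 6 of the 9 above 0, and -0.597 against -0.01 for rosiglitazone in KO. With upper-quartile scaling it was 0.122 over both treatments. Dropping single libraries moved Ifit3 between -0.391 and 0.875, Rsad2 between -0.044 and 1.248 and Ifi44 between -0.268 and 0.642, and for rosiglitazone in KO Ifit1 between -2.246 and 0.185 and Rsad2 between -1.977 and 0.605, in each case between the fits without KO diet replicate 1 and without KO diet replicate 2. For KO against WT with rosiglitazone the count was 0 by the chosen fit (15.0%), and 1 by DESeq2 (22.1%) and with protein-coding genes only (23.7%). It was 3 with the lymphocyte covariate (14.3%), and 4 by limma-voom (34.1%) and with only the groups compared (35.8%). It was 1 without WT diet replicate 1 (22.1%) or 3 (14.6%), and 1 without KO rosiglitazone replicate 2, for which the share is not given. The count also rose without either KO diet library, fits that leave 1 library in that group. With the replicate number as a block the count for that comparison was 1 (12.8%), and the block changed no other count of calls. It left 7 of the 9 above 0 there, with Ifit3 and Ifi44 below, and 8 below 0 for rosiglitazone in WT. Same-number libraries of different groups correlated from -0.419 to 0.608, with 6 of 15 over 0.1, against 11 of 30 for other numbers. These correlations use differences from means of 2 or 3 libraries, which are tied to each other. They cannot decide whether the numbers pair libraries. For KO against WT on diet the count was 0 (0.137%), and 5 with WT treatments from the titles (10.7%). It also rose without KO diet replicate 2, a fit that leaves 1 library in that group. The titles gave 0.741 for Ifit2, 0.922 for Usp18, 0.854 for Gbp5 and 1.269 for Tgtp2 for rosiglitazone in WT. They gave -0.023 for Ifit2 in KO against WT with rosiglitazone. For rosiglitazone in WT limma-voom called 1 (27.2%). For rosiglitazone averaged over genotypes the lymphocyte covariate gave 1 (9.63%). The count was also above 0 without KO diet replicate 2, a fit that leaves 1 library in that group. The fit without KO diet replicate 1 for the other lists was chosen after seeing the data. Where a cause is not given, the cause was not tested. Depth limits Isg15 and Ifi44 most, at 47 and 60 reads in their lowest libraries.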
